A study of Mus musculus with 23 samples.

Results

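The miRNAs described here are 9 loci best known from epithelia: the miR-200 family (mir-200a, mir-200b, mir-429, mir-200c and mir-141) and mir-203, mir-205, mir-184 and mir-31. They were chosen by name, with earlier results of these data known, and all 9 were found among the 903 mature miRNA rows of the deposited count table. The study sequenced small RNA of mouse retinas at postnatal day 90 in 23 libraries, 1 retina each. Wild-type (WT) C57B mice gave 2 libraries, and the other 21 came from heterozygous P23H knock-in mice, labelled P23H+/- KI, which carry 1 copy of a rhodopsin mutation that causes retinitis pigmentosa in people. The P23H mice were left uninjected (5 libraries), given saline (2), or treated with the human rhodopsin gene (human gRHO, 3) or the mouse rhodopsin gene (mouse gRho, 11), each in its genomic form on DNA nanoparticles. Every treated, saline and uninjected mouse thus carries the P23H allele, and WT is the only group without it. The labels name neither the site nor the time of injection. With the eyes of a mouse summed, as read from the sample titles, the libraries came from 7 mouse gRho mice, 3 uninjected, 2 human gRHO and 2 WT mice, and 1 saline mouse.

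A miRNA is cut from a hairpin precursor and pairs with target messages mainly through its seed, bases 2 to 8 of the mature strand. The miR-200 family holds cells in an epithelial state by repressing Zeb1 and Zeb2, the repressors of E-cadherin, and miR-205 shares those targets. miR-203 restrains p63 in the differentiating epidermis, miR-184 is abundant in corneal epithelium and lens, and miR-31 is active in skin and hair follicle. The neural retina is itself a neuroepithelium, bordered by pigment, ciliary and lens epithelia that can come along in a dissection.

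The seeds split the miR-200 family, so the 5 strands that carry the family's name are shown first, with the seed in capitals and from the 5′ to the 3′ end (RefSeq, GRCm38.p6, in which all 9 loci were matched by name).
mmu-miR-200b-3p: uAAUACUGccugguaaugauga
mmu-miR-200c-3p: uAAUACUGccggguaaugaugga
mmu-miR-429-3p: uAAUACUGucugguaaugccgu
mmu-miR-200a-3p: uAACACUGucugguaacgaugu
mmu-miR-141-3p: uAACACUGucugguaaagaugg
Counted from 1 at the 5′ end, miR-200b-3p and miR-200a-3p differ by U4C in the seed and by C9U, U17C and A22U outside it. miR-200b-3p and miR-200c-3p differ by U11G and A22G over 22 bases, and miR-200a-3p and miR-141-3p by C17A and U22G. A single seed base therefore separates mir-200a from mir-200b, which lie together in the genome, while each of the 3p seeds is shared across 2 chromosomes.

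The other members carry seeds of their own, shown here for the strand each is usually known by.
mmu-miR-203-3p: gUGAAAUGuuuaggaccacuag
mmu-miR-205-5p: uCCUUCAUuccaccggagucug
mmu-miR-184-3p: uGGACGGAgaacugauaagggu
mmu-miR-31-5p: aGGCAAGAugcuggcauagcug
The name of a deposited row gives the locus without its arm, so whether the reads of a row are 5p or 3p could not be read from them. On the passenger side, miR-200a-5p and miR-200b-5p also share a seed, AUCUUAC.

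On the mouse genome (RefSeq hairpins on GRCm38.p6, neighbours from GENCODE vM21), mir-429, mir-200a and mir-200b lie on the minus strand within 1846 bp. Their hairpins are at chr4:156053905-156053987, chr4:156054896-156054985 and chr4:156055681-156055750. All 3 fall in an intron of the protein-coding gene Ttll10, and mir-429 also in an exon of the noncoding transcript Gm13648. mir-141 (chr6:124717914-124717985) and mir-200c (chr6:124718322-124718390) lie within 477 bp on the minus strand, in an intron of the antisense transcript Gm15884. mir-205 (chr1:193507463-193507530, minus strand) and mir-31 (chr4:88910557-88910662, minus strand) are each in an exon of a long noncoding RNA. mir-203 (chr12:112130880-112130955, plus strand) and mir-184 (chr9:89802260-89802328, minus strand) overlap no annotated gene of another type, and their nearest coding genes are Aspg and Ankrd34c. Overlap with other miRNA genes was not searched.

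Levels are counts scaled to the mature miRNA reads of a library (CPM). Libraries held between 5968388 and 16048954 such reads, and the mature rows together hold between 10.4% and 19.5% of them, so CPM ranks a row within the table and is no share of all miRNA. By their median over the 23 libraries, mir-200c (733 CPM, place 13 of 903) and mir-429 (497, place 15) stood far above the rest. mir-200b (49.7) and mir-200a (21.1) came next, followed by mir-205 (15.1), mir-184 (9.29), mir-31 (4.24), mir-203 (2.78) and mir-141 (1.43). Neighbours in the lower part of this order overlap: mir-31 ranged from 1.87 to 19.6 CPM, mir-203 from 1.53 to 8.75 and mir-141 from 0.54 to 4.99. mir-141, with a median of 13 reads, is also the member measured with the fewest counts. The pairs cut from 1 stretch of genome were thus far apart in this table, mir-200c against mir-141 and mir-429 against mir-200a. Among members with the same 3p seed, mir-200b lay below both mir-200c and mir-429. These orders of medians did not hold in every library. They were reversed in 8 libraries with mir-200c at 0.07 to 0.62 CPM, and in 1 with mir-429 at 0.22.

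The rows of mir-200c and mir-429 jump between 2 levels and were not tested. For mir-200c, 15 libraries held 4611 to 14734 reads and the other 8 held 1 to 6. The low libraries were WT mouse 1, the right eye of uninjected mouse 1, the left eye of the saline mouse, the right eye of human gRHO mouse 1, both eyes of mouse gRho mouse 1, the right eye of mouse gRho mouse 2 and mouse gRho mouse 6. Every group therefore has libraries at both levels, and 7 of the 8 are the first 7 columns of the deposited table. In the 15 high libraries, mir-200c measured 447 CPM in WT mouse 2, 1001 to 1169 in 4 uninjected libraries, 848 in saline, 733 and 764 in human gRHO and 634 to 1402 (median 812) in 7 mouse gRho libraries. The single high WT library was thus below all 14 high P23H libraries, with no second WT value to set its spread. For mir-429, 22 libraries held 2428 to 12522 reads and the right eye of mouse gRho mouse 3 held 2. Without that library, mir-429 measured 398 and 434 CPM in WT, 340 to 634 in uninjected, 377 and 497 in saline, 328 to 1084 in human gRHO and 244 to 1275 in mouse gRho retinas, so the groups overlapped.

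**Figure D1:**
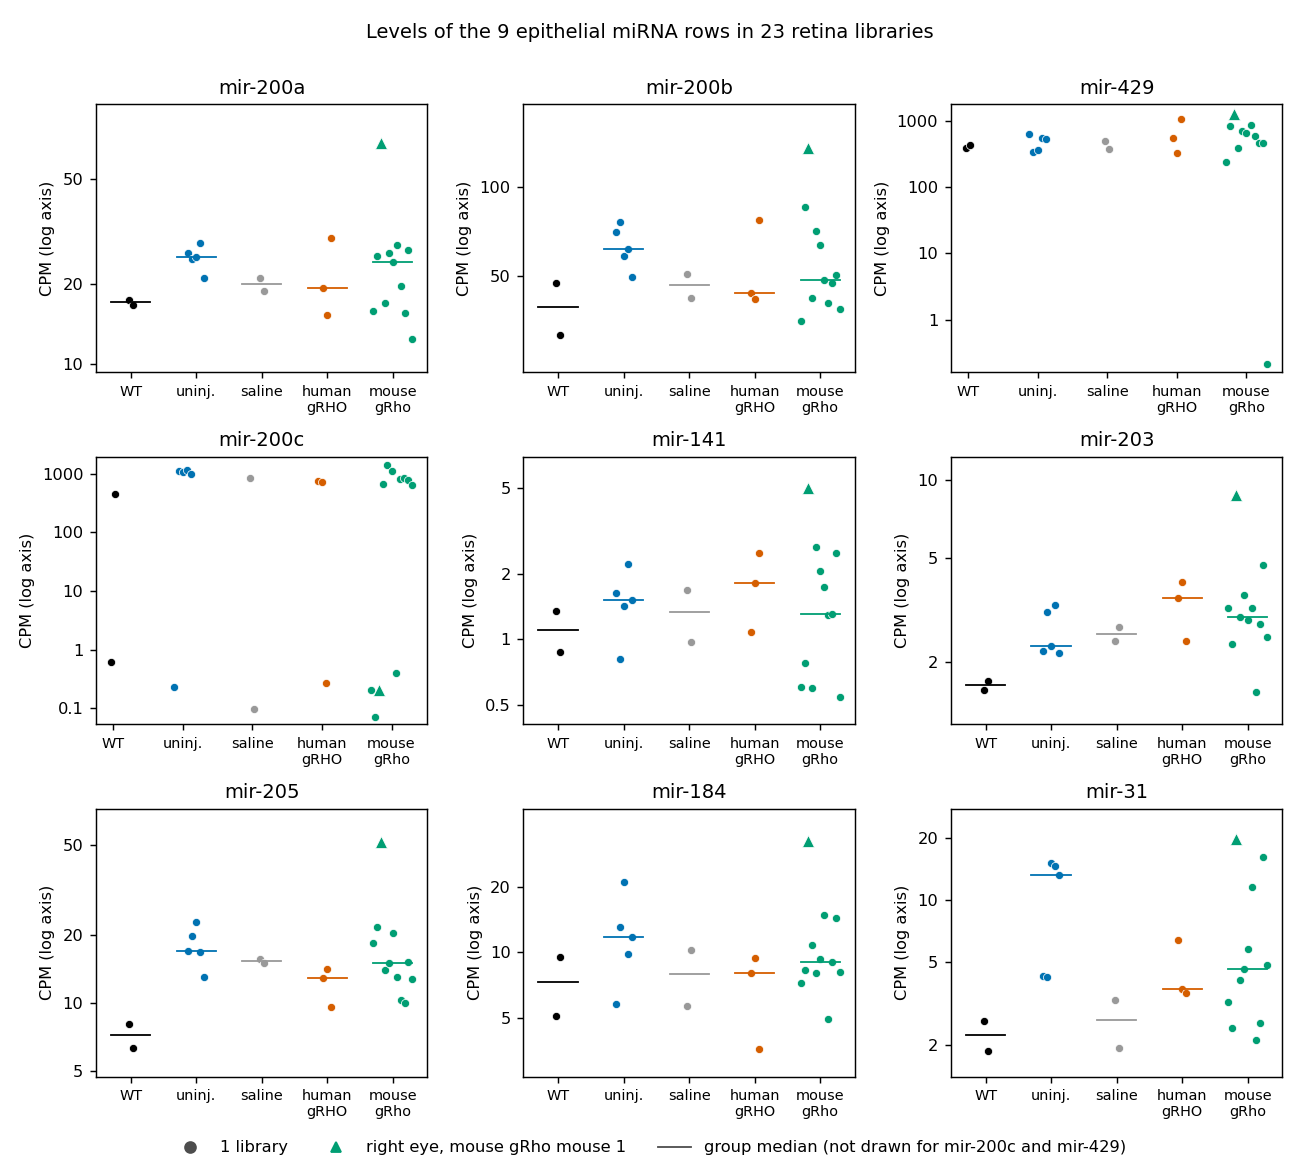
CPM (log axis) of the 9 epithelial rows, 1 point per library, by group, with a triangle for the right eye of mouse gRho mouse 1. A line marks the group median, except for mir-200c and mir-429. mir-200c shows 8 libraries at 1 to 6 reads and 15 at 447 CPM or more, mir-205 lies lowest in both WT retinas, and the triangle is highest in every panel but that of mir-200c.

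Uninjected P23H against WT retinas compares mice with and without the rhodopsin mutation, none of them treated. The mutation is not their only difference. The uninjected mice share a leading title number that WT mice lack, and if it is a cage, genotype and cage cannot be told apart. Ribosomal RNA (rRNA) was 0.31% and 0.20% of aligned reads in WT, and 3.00% to 5.14% in uninjected mice 2 and 3. None of the 7 tested members passed the test (edgeR quasi-likelihood, adjusted p of 0.05 over 382 rows, 3 mice against 2), where 1.57% of all rows did. All 7 had a fitted fold change above 0, with a median log2 value of 0.27 beside -0.09 for all rows, of which 45.8% were above 0. The fits use TMM factors; without them the median of all rows moved from -0.09 to 0.34 and that of the members from 0.27 to 0.67, so changes are best read against all rows. At an unadjusted p under 0.05, 63 of 382 rows passed, 2 of them members. DESeq2 called 11 rows, no member among them, with 66 rows at an unadjusted p under 0.05. The labels do not state that libraries are separate animals, so p-values measure the spread between these samples, which may be partly technical.

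mir-205, the epithelial partner of the miR-200 family, measured 8.09 CPM in WT mouse 1 and 6.29 in WT mouse 2. The uninjected libraries measured 17.0 and 19.9 (mouse 1, right and left), 22.9 (mouse 2) and 16.9 and 13.1 (mouse 3, right and left). Both WT retinas were below every uninjected one, and the groups did not overlap. Of 382 rows, 22.5% had every uninjected mouse above both WT mice, and 13.1% with TMM factors. Over mice, the level was 18.8 ± 4.0 CPM (SD, n = 3) in uninjected and 7.19 ± 1.27 (SD, n = 2) in WT. The fitted log2 fold change was 0.96 (SE 0.40) and missed the threshold (edgeR adjusted p = 0.242; range over 17 alternatives 0.0922 to 0.697).

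The other P23H groups placed mir-205 in the same way. Saline retinas measured 15.7 and 15.1 CPM and human gRHO retinas 12.9 and 9.63 (mouse 1, left and right) and 14.1 (mouse 2). The 11 mouse gRho libraries ran from 10.1 to 51.8 CPM with a median of 15.1. All 21 P23H libraries, and all 13 P23H mice, were above both WT retinas. Of 382 rows, 5.76% had all P23H mice above both WT mice on this scale and 3.93% with TMM factors, and mir-205 was the 1 member among the 7 on either. mouse gRho against WT gave a log2 fold change of 1.05 (SE 0.37, edgeR adjusted p = 0.129), and 0.79 without mouse gRho mouse 1. edgeR called 0 of 7 members in mouse gRho against WT, beside 3.14% of rows. At an unadjusted p under 0.05 by edgeR, 69 of 382 rows (18.1%) passed, 2 of them members. In that comparison mir-31 was at 1.26, mir-203 at 0.70, mir-141 at 0.35, mir-200b at 0.34, mir-200a at 0.27 and mir-184 at 0.23. human gRHO against WT gave 0.57 (edgeR adjusted p = 0.646). These 3 comparisons share the 2 WT mice, which also had the lowest levels of mir-204, the pigment epithelium and glia miRNA (77.7 and 33.3 CPM, against 79.5 or more in every P23H library). WT summed levels of the 2-row pigment epithelium and glia list were 53.7 to 99.6 CPM, and 97.5 to 298 in the P23H groups. The other row of that list, mir-211, did not share this order. It measured 22.0 and 20.4 CPM in WT, within the 14.5 to 43.6 of the P23H libraries. Whether tissue carried along bears on mir-205 was not tested, and in whole retinas fewer cells of a type and less RNA per cell cannot be told apart.

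mir-31, known from skin, measured 2.59 and 1.87 CPM in the 2 WT retinas. Uninjected libraries measured 4.30 and 4.24 (mouse 1), 15.04 (mouse 2) and 14.6 and 13.2 (mouse 3). All 5 were above WT, an order that 22.5% of rows had over mice, and 13.1% with TMM factors. The 5 libraries fell into a low mouse and 2 high ones. The log2 fold change was 1.82 (SE 0.60), and neither edgeR (adjusted p = 0.153) nor DESeq2 (adjusted p = 0.0570) called it. The 3 high retinas are those in which ribosomal RNA reached 3.00% to 5.14% of aligned reads, and without the rRNA-rich libraries the log2 value was 0.63. mir-31 in the other groups was 3.30 and 1.94 CPM in saline, 6.39, 3.57 and 3.73 in human gRHO, and 2.12 to 19.6 (median 4.66) in mouse gRho. With both eyes of a mouse counted, 17 of 21 P23H libraries were above both WT retinas. The same count was 21 for mir-205, 20 for mir-203, 16 for mir-200a, 14 for mir-200b, 12 for mir-141 and 9 for mir-184. The share of all rows at such a count was not computed. These counts use CPM without TMM factors. On that scale the median log2 difference of all rows from WT was 0.34 in uninjected, 0.25 in mouse gRho and 0.25 in human gRHO mice.

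The 6 libraries with at least 3% rRNA comprise 3 uninjected (mouse 2 and both eyes of mouse 3) and 3 mouse gRho retinas (mouse 6, the left eye of mouse 2 and the right eye of mouse 3). They held mir-31 at 4.86 to 16.1 CPM (median 13.9), against 1.87 to 6.39 (median 3.43) in 16 of the other 17. The remaining library, the right eye of mouse gRho mouse 1, measured 19.6 CPM with 0.88% rRNA. The same 6 libraries also carried mir-375, an endocrine and epithelial miRNA, at 528 to 1160 CPM against 172 to 420 in those 16. mir-205 showed no such split, with 12.7 to 22.9 CPM in the rRNA-rich libraries. Medians there and in the other 17 libraries were 13.0 and 8.29 CPM for mir-184, and 26.2 and 19.6 for mir-200a. They were 50.2 and 47.6 CPM for mir-200b, 1.63 and 1.31 for mir-141, and 2.85 and 2.78 for mir-203. For each of these members the ranges overlapped. The part of rRNA content in the values of mir-31 and the other members was not tested.

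**Figure D2:**
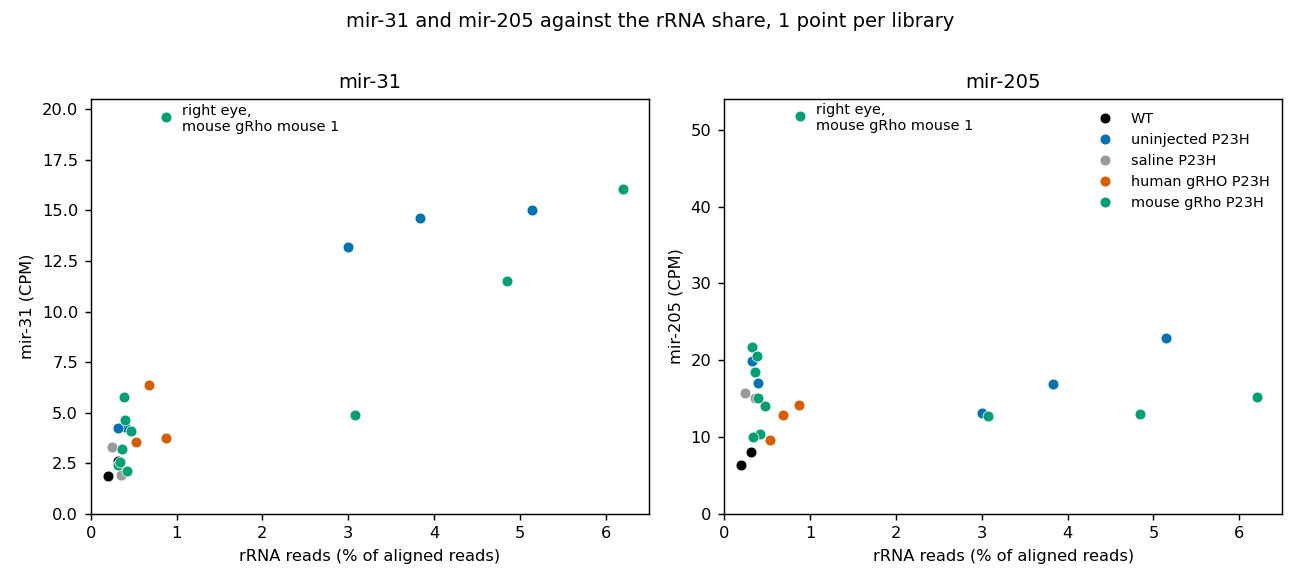
CPM of mir-31 and mir-205 against the share of rRNA in aligned reads (%), 1 point per library coloured by group. mir-31 lies between 4.86 and 16.1 CPM in the 6 libraries with at least 3% rRNA, whereas mir-205 in those libraries stays within 12.7 to 22.9 CPM.

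The chromosome 4 pair, mir-200a and mir-200b, had fitted differences between uninjected and WT retinas below their error. mir-200a measured 17.4 and 16.7 CPM in WT and 26.3, 24.95, 25.4, 28.5 and 21.1 in uninjected libraries, so the groups did not overlap on the CPM scale. Its level was 25.2 ± 0.480 CPM (SD, n = 3 mice) against 17.1 ± 0.508 (SD, n = 2), yet with TMM factors the log2 difference was 0.12 (SE 0.32, edgeR adjusted p = 0.838). mir-200b measured 47.3 and 31.6 CPM in WT and 49.7 to 76.5 in uninjected libraries, a log2 difference of 0.27 (SE 0.32, edgeR adjusted p = 0.680). Counted over mice without TMM factors, 5 of 7 members had all uninjected mice above both WT mice (mir-200a, mir-200b, mir-203, mir-205 and mir-31), beside 22.5% of all rows. With TMM factors 2 did (mir-205 and mir-31), beside 13.1%. The separation of mir-200a, mir-200b and mir-203 was thus lost with TMM factors.

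mir-203, the epidermal differentiation miRNA, had few reads. It measured 1.56 and 1.68 CPM in WT and 2.19, 3.10, 2.29, 3.30 and 2.16 in uninjected libraries. Human gRHO retinas measured 3.51, 2.41 and 4.04 CPM, saline 2.41 and 2.71, and mouse gRho 1.53 to 8.75 (median 2.98). WT was lowest except for mouse gRho mouse 7, which gave the 1.53. Its log2 differences from WT were 0.20 (uninjected), 0.70 (mouse gRho) and 0.82 (human gRHO), with an SE of 0.47 for the first and edgeR adjusted p = 0.825 there.

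mir-184, of corneal epithelium and lens, and mir-141 overlapped between all groups as single libraries. mir-184 measured 5.08 and 9.53 CPM in WT, 5.79 to 20.9 in uninjected, 5.62 and 10.3 in saline, 3.57 to 9.38 in human gRHO and 4.94 to 32.5 in mouse gRho libraries. Its log2 difference between uninjected and WT was 0.36 (SE 0.47, edgeR adjusted p = 0.712) but ran from -0.07 to 1.27 over the alternatives. The value 1.27 came without WT mouse 2. Summed per mouse, the saline mouse (7.85 CPM) was below all uninjected mice (9.34 or more), as in 36.1% of rows. mir-141 measured 1.35 and 0.87 CPM in WT and 0.82 to 2.24 in uninjected libraries, with a log2 difference of 0.02 (SE 0.56, edgeR adjusted p = 0.978). Both human gRHO mice (1.79 and 1.82 CPM) were above both WT mice in mir-141, as were 25.1% of rows in that comparison, and 17.5% with TMM factors.

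**Figure D3:**
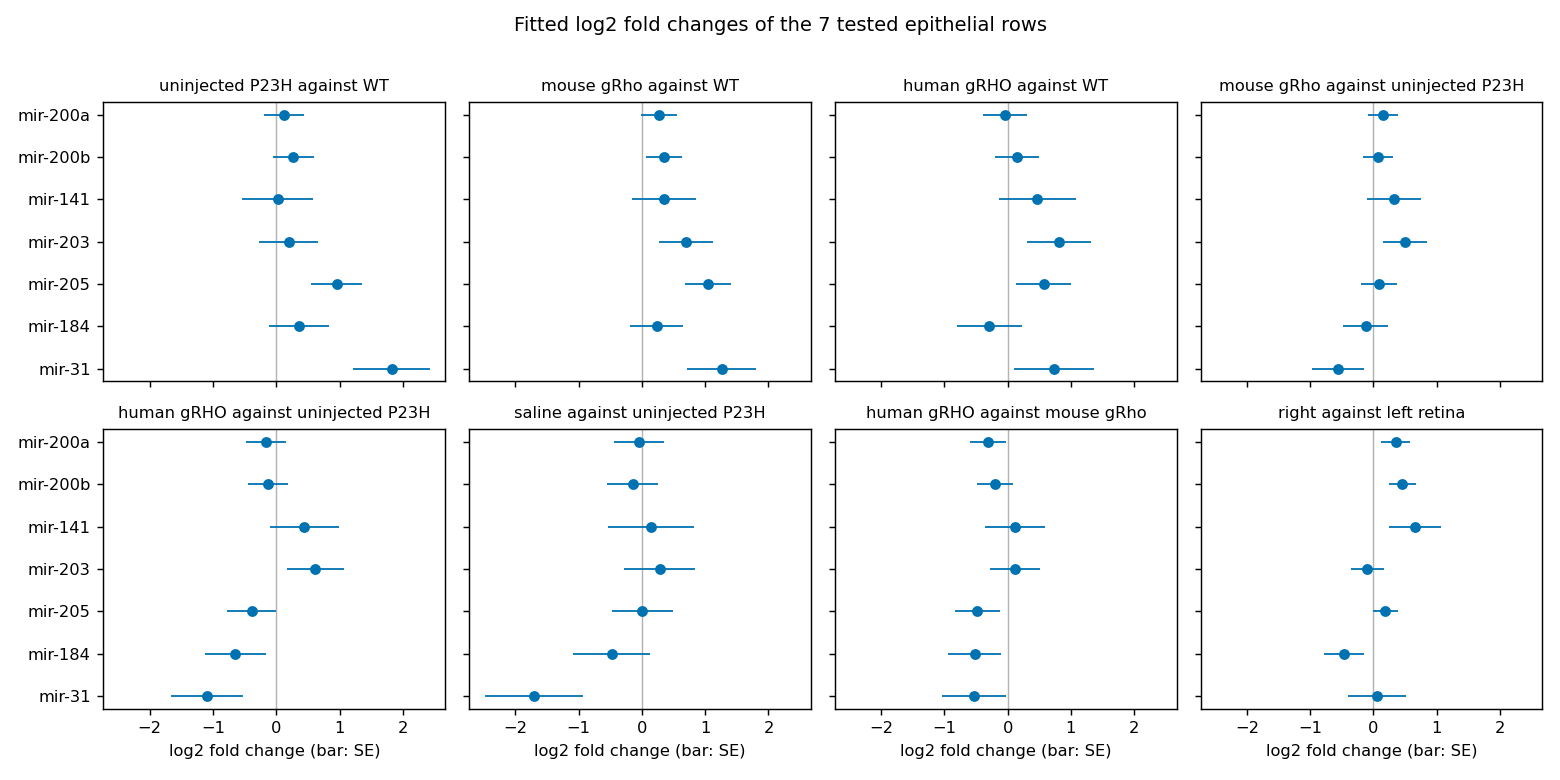
Fitted log2 fold changes (edgeR, TMM factors) of the 7 tested rows in 8 comparisons, with bars of 1 SE. mir-205 and mir-31 lie farthest above 0 in the comparisons of uninjected and mouse gRho retinas with WT, mir-31 lies lowest in those with uninjected P23H, and no point passed the adjusted threshold.

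The treatment comparisons ask whether either rhodopsin gene, or saline, moves these miRNAs in P23H retinas. Against uninjected mice, mouse gRho (7 mice against 3) gave log2 differences of 0.15 for mir-200a, 0.07 for mir-200b, 0.33 for mir-141, 0.50 for mir-203, 0.09 for mir-205, -0.12 for mir-184 and -0.56 for mir-31. None was called (lowest edgeR adjusted p = 0.913), and neither was any of the 382 rows (0%), 18 of which had an unadjusted p under 0.05. DESeq2 called 0 rows and had 23 at that level. The members' median of 0.09 stood beside 0.08 for all rows. Of the 7, 5 were above 0 with TMM factors and 2 without them.

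Human gRHO against uninjected (2 mice against 3) gave -1.09 (SE 0.57) for mir-31, -0.65 for mir-184, -0.39 for mir-205, -0.16 for mir-200a, -0.12 for mir-200b, 0.45 for mir-141 and 0.62 for mir-203. No member and 0% of rows were called (edgeR adjusted p = 0.930 for mir-31), with 10 rows at an unadjusted p under 0.05 by edgeR, and 0 called and 18 at that level by DESeq2. Without the rRNA-rich libraries, which include 2 of the 3 uninjected mice and leave 1, assumed to vary like the others, the mir-31 value was 0.06, and for mouse gRho against uninjected it was 0.24. The direction of mir-31 in both comparisons thus turned with those libraries. The uninjected mice share a leading title number that no other group has, as do the human gRHO mice, and if that number is a cage, treatment and cage cannot be told apart.

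The saline mouse measured mir-31 at 2.65 CPM over both eyes, below each uninjected mouse (4.27, 15.04 and 13.9). Of the 382 rows, 36.1% had that order on this scale, and 23.3% with TMM factors. The log2 difference was -1.70 (SE 0.78) and was not called (edgeR adjusted p = 0.910), in a comparison where the single saline mouse is assumed to vary like the others. Without the rRNA-rich libraries it was -0.56. The other members were at -0.05 (mir-200a), -0.15 (mir-200b), 0.14 (mir-141), 0.28 (mir-203), 0.01 (mir-205) and -0.48 (mir-184). None of the 7 members and 0% of rows were called, 13 having an unadjusted p under 0.05 by edgeR (mir-31 among them) and 14 by DESeq2, which called 0. Human gRHO against mouse gRho, the contrast of the 2 genes, gave a members' median of -0.31 beside -0.04 for all rows. The members were at -0.53 (mir-31), -0.52 (mir-184), -0.48 (mir-205), -0.31 (mir-200a), -0.20 (mir-200b) and 0.12 (mir-203 and mir-141), with no call among members (edgeR adjusted p = 0.997) and 0% among rows. 11 rows had an unadjusted p under 0.05 by edgeR and 13 by DESeq2, which called 0. Human gRHO against WT gave a members' median of 0.47 beside 0.02, with mir-200a at -0.04, mir-200b at 0.15, mir-141 at 0.47, mir-203 at 0.82, mir-205 at 0.57, mir-184 at -0.29 and mir-31 at 0.73. edgeR called 0 of 7 members and 0% of rows, with 38 rows at an unadjusted p under 0.05, and 5 called by DESeq2. The SEs of the members in these treatment comparisons reached 0.78.

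A single library stood apart in the members as a group. Its source was mouse gRho mouse 1, right eye, which ranked highest of 23 for all 7 tested members and for mir-429. It measured 136 CPM of mir-200b, 68.0 of mir-200a, 51.8 of mir-205, 32.5 of mir-184, 19.6 of mir-31, 8.75 of mir-203 and 4.99 of mir-141, which was 2.78 to 4.72 times the median of the other 22 libraries. This library was highest for 24.9% of the 257 rows with a median of at least 10 reads. The left eye of the same mouse measured 35.4 CPM of mir-200b, 15.9 of mir-200a and 18.5 of mir-205. Between the eyes, the members differed by 2.72-fold (mir-203) to 8.26-fold (mir-141). Precursor rows, which hold far fewer reads, were highest in that library for 3 of the 7 members that have one: mir-429 (42 reads), mir-200a (17) and mir-141 (8). Those of mir-205, mir-184, mir-31 and mir-203 were highest in other libraries, at 5, 6, 7 and 1 reads.

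Markers of other tissue in this retina differed too. The list of 9 retinal neuron and photoreceptor rows summed to 2664 CPM there, against 4773 to 14247 in the other libraries, with 0 of 9 rows at 0. In it mir-183, a photoreceptor miRNA, measured 42.4 CPM and mir-124-1, a neuronal miRNA, 4.27. On the scale of median log2 deviation from the median library, that list was at -4.10 and the 7 members at 1.67. The vessel list (5 rows) and the leukocyte list (3 rows) were also at their highest, 0.80 and 0.94. The pigment epithelium and glia list was at 0.04 and the other epithelium-linked loci at -0.39, the second lowest of 23. mir-375 measured 24.3 CPM in that eye. The part of tissue makeup in these values was not tested. Without this eye no member was called in any comparison either.

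**Figure D4:**
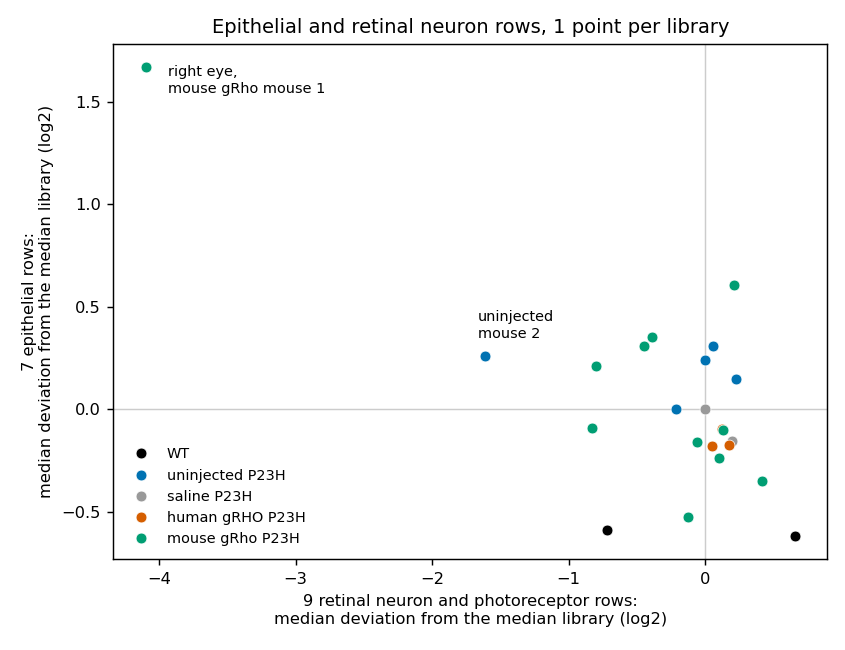
Median log2 deviation from the median library of the 7 epithelial rows (vertical axis) against that of the 9 retinal neuron and photoreceptor rows (horizontal axis), 1 point per library coloured by group. The right eye of mouse gRho mouse 1 lies at 1.67 and -4.10, the uninjected mouse 2 retina at 0.26 and -1.61, and both WT retinas at -0.62 and -0.59 on the vertical axis.

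The uninjected mouse 2 retina was the second lowest in the retinal list (-1.61) and highest in the muscle list (0.79), with the members at 0.26. Across groups, the summed level of the 7 members was 68.5 and 83.4 CPM in WT, 112 to 146 in uninjected, 92.2 and 101 in saline, 90.2 to 129 in human gRHO and 80.1 to 322 (median 121) in mouse gRho libraries. Summed retinal levels were 6447 to 10415 CPM in WT, 4773 to 11240 in uninjected, 11163 to 14247 in saline, 9589 to 11011 in human gRHO and 2664 to 12921 in mouse gRho libraries. WT mouse 2 thus had the lowest member sum, and 2 mouse gRho libraries lay between it and WT mouse 1, while the WT retinal sums lay within the range of the other groups. Row by row and with TMM factors, all 9 retinal rows were lower in uninjected mice than in WT (median log2 difference -0.73). In that comparison 45.8% of all rows were higher. The 2 WT retinas differed in this list, with median log2 deviations of 0.66 (mouse 1) and -0.72 (mouse 2). The list holds several mir-124 and mir-9 loci, so its rows are not separate results. All 9 retinal rows were higher than in uninjected mice in mouse gRho (median 0.33), human gRHO (0.63) and saline (0.75). Of all rows, 57.6%, 50.8% and 49.7% were higher there. None of the 9 was called by edgeR in these 4 comparisons. The part of these rows in the members' values was not tested.

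Right and left retinas of 8 mice were compared with a term for the mouse. Right over left, log2 differences were 0.46 for mir-200b (SE 0.21), 0.35 for mir-200a, 0.66 for mir-141, 0.19 for mir-205, 0.06 for mir-31, -0.10 for mir-203 and -0.46 for mir-184. No member was called (lowest edgeR adjusted p = 0.965), nor any row (0%), with 12 rows (mir-200b among them) at an unadjusted p under 0.05 by edgeR and 16 by DESeq2, which called 0. mir-184 was higher on the left in 7 of 8 mice, the exception being mouse gRho mouse 1. Right and left measured 5.79 and 13.0 CPM in uninjected mouse 1, 9.76 and 11.7 in uninjected mouse 3, 5.62 and 10.3 in saline, 3.57 and 8.01 in human gRHO mouse 1, 8.29 and 14.4 in mouse gRho mouse 2, 8.10 and 10.7 in mouse 3 and 7.99 and 8.97 in mouse 4. Without mouse gRho mouse 1, the log2 difference of mir-184 was -0.76 and still not called (edgeR adjusted p = 0.170). mir-200a, mir-200b, mir-141 and mir-31 were higher on the right in 6 of 8 mice each, mir-205 in 5 and mir-203 in 3. The untested mir-429 was higher on the right in 7 mice and mir-200c in 4. The share of all rows at such counts, that of mir-184 included, was not computed.

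**Figure D5:**
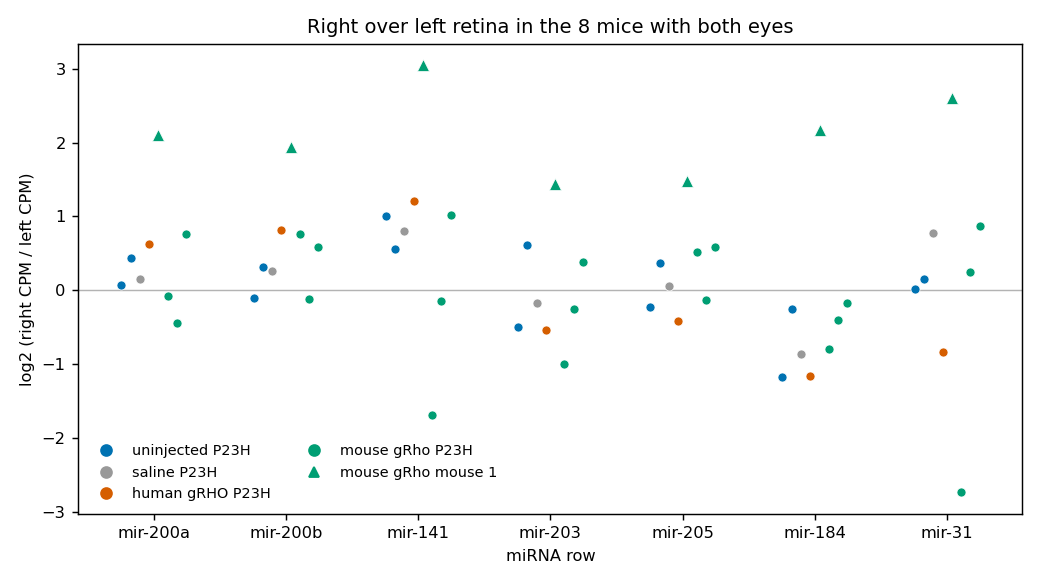
Log2 ratio of right to left CPM for the 7 tested rows, 1 point per mouse coloured by group, in the 8 mice with both eyes. Mouse gRho mouse 1 (triangle) is above 1 in every row, and mir-184 is below 0 in the other 7 mice.

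Across the 15 mice, the members' levels were positively related, as a description. Spearman's rho over their 21 pairs had a median of 0.49, from 0.16 to 0.81, and over all 72771 pairs of tested rows the median was 0.04. Leaving out mouse gRho mouse 1 and uninjected mouse 2, the members' median was 0.41. All pairs share the mice and their depth. The pair mir-200a and mir-200b, cut from 1 cluster and alike in their 5p seeds, had the 0.81, and mir-184 with mir-31 had 0.76.

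By the same measure, the 3 rows most like each member were ranked with the members themselves left out. For mir-200a, the left-out mir-200b (0.81) lay above the third row listed. mir-205 was closest to mir-140 (rho 0.86), mir-125b-1 (0.84) and mir-99b (0.81), and mir-200b to mir-199a-2 (0.84), mir-199a-1 (0.83) and mir-140 (0.82). The 2 mir-199a copies can share reads. mir-200a was closest to mir-1224 (0.88), mir-148a (0.84) and mir-221 (0.80), mir-31 to mir-582 (0.86), mir-148a (0.86) and mir-5113 (0.84), and mir-184 to mir-5113 (0.90), mir-27a (0.82) and mir-340 (0.82). mir-141 was closest to mir-6944 (0.68), mir-532 (0.64) and mir-6899 (0.63), and mir-203 to mir-6899 (0.70), mir-1943 (0.66) and mir-342 (0.62).

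A list of 11 other loci linked to epithelia (mir-375, mir-192, mir-194-1, mir-194-2, mir-215, mir-203b and the mir-34b/c and mir-449 clusters of ciliated cells) gave 10 rows, of which 7 were tested. None was called in any comparison. Between uninjected and WT, 4 were higher and 3 lower with a median log2 value of 0.73, and the farthest, mir-34b, was at 2.35 (SE 0.70, edgeR adjusted p = 0.120). Between mouse gRho and uninjected, 1 was higher and 6 lower with a median of -0.52.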

How the data were processed

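Counts of reads per miRNA locus, split by class (mature, precursor, stemloop, unannotated), were deposited by the authors with a table of reads per class of alignment. Per the labels' protocols, Trizol was used for extraction and the NEXTflex small RNA v3 kit for the libraries, the submitters' processing notes name DESeq2 without a version, and an aligner, counting program, annotation or build is not given in the sources used here. 0 columns were unused. The members, lists and tests were chosen with earlier results of these data known. All 9 members are named: the 7 tested ones with their value in every comparison and their 3 most similar rows outside the members, mir-200c and mir-429 by their levels in each group.

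CPM are counts scaled to the mature miRNA reads of each library. Rows that jump between 2 levels (a highest count of at least 30, and a largest gap in sorted log2(CPM + 0.5) of at least 3.5, or of 2 with 2 libraries on each side) were set aside: 65 of 337 rows, 2 of them members. Eyes of 1 mouse, read from the titles, were summed to 15 mice with 6980992 to 25046363 mature reads. edgeR 4.0.16 (R 4.3.3; quasi-likelihood, robust, TMM factors, all groups in 1 fit) tested the 382 rows that reached 10 counts in 3 or more mice, with Benjamini-Hochberg adjustment. DESeq2 1.42.0 was an alternative. The fit was tested on simulated data. Every pair of libraries within a group differed beyond sampling noise (chi-square over its degrees of freedom was 15.8 or more). Eyes were paired by mouse as the titles give it. Alternatives changed the scaling, the filter, the set-aside rule and the libraries used. Leaving out the right eye of mouse gRho mouse 1 alone, or with the rRNA-rich libraries, was added after seeing the data.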

Additional observations from a re-analysis of the deposited data

Results flagged for a closer look

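Among the 7 mouse gRho mice, mouse 1 stood above the others in mir-205, at 35.1 CPM against 20.5 in the next mouse, a gap of 0.588 of the group's range, which is past Dixon's 95% critical value. The same mouse stood above the others in mir-203, at 5.97 CPM against 3.22, a gap of 0.620 of the range, also past it. The high eye was the right one in both, at 51.8 and 8.75 CPM. These were 2 of 18 tests, and chance passes about 1 group in 20.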

How the results depend on the processing

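No member was called under any alternative in any of the 8 comparisons. Of 931 values, 921 kept their direction and their side of the threshold, or changed sign by less than the SE of the main value. A value that kept its direction is among the 921 however far it moved. The lowest adjusted p was 0.0570 (mir-31, uninjected against WT, DESeq2). The calls among all rows ranged from 0 to 60 in uninjected against WT, from 0 to 64 in mouse gRho against WT and from 0 to 46 in human gRHO against WT. The 10 other values changed sign and moved further. For mir-31 they were 0.24 in mouse gRho against uninjected and 0.06 in human gRHO against uninjected without the rRNA-rich libraries, and 0.04 in the latter and 0.25 in human gRHO against mouse gRho without those and the right eye of mouse gRho mouse 1. In mouse gRho against uninjected, mir-200b was at -0.17 without the rRNA-rich libraries, and at -0.36 without that eye as well, where mir-200a was at -0.24. mir-184 was at -0.19 in mouse gRho against WT without WT mouse 1, at 0.47 in human gRHO against WT without WT mouse 2, and at 0.28 in mouse gRho against uninjected without uninjected mouse 2. The cause was not tested. Leaving out 1 mouse at a time, mir-205 in uninjected against WT stayed between 0.83 and 1.17 and mir-31 between 1.54 and 2.18. Without the mouse term (no pairing of eyes), no member was called between eyes. The 2 WT mice, the single saline mouse and the 13 reads of mir-141 in the median library limit what can be resolved.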
